A study of Mus musculus with 4 samples.

Results

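MHC class I presentation genes encode the machinery that shows fragments of a cell's own proteins at its surface. Of 10 genes chosen by name, 9 were found among the 13289 genes analysed: the heavy chains H2-D1 and H2-K1, the light chain B2m, the peptide transporter subunits Tap1 and Tap2, the loading factor Tapbp, the immunoproteasome subunits Psmb8 and Psmb10, and the transactivator Nlrc5. The remaining one, Psmb9, was not analysed here. The genes were picked with their difference between the groups already known, so that difference is described below with no p-value for any of them, and calls are given only as a count over the set.

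Proteins are cut by the proteasome, whose catalytic subunits are exchanged for inducible ones, including Psmb8 and Psmb10, in immune cells and after interferon. The TAP transporter carries the peptides into the endoplasmic reticulum, where tapasin (Tapbp) holds an empty heavy chain bound to B2m until a peptide fits. Nlrc5 enters the nucleus and, with RFX, CREB/ATF and NF-Y proteins, activates class I promoters. In brain, microglia and endothelial cells are the main carriers of class I, while neurons carry less and use it during synapse and axon development.

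The data are polyadenylated RNA from mouse cerebral cortex at embryonic day 15, taken from fresh brain, in 2 control libraries (titled WT) and 2 libraries of an Lhx2 conditional knockout (titled Lhx2cKO, below also the knockouts). Lhx2 is a LIM-homeodomain transcription factor of cortical progenitors. The Cre driver, the allele, the strain and the number of embryos per library are not given in the sources used here, so p-values measure only the spread between these libraries, which may be technical. Total counts ranged from 22294237 to 24609627 per library. Lhx2 itself was at 316 and 287 CPM (counts scaled to library size) in the controls and 239 and 247 CPM in the knockouts, -0.31 on the log2 scale (SE 0.098), with an adjusted p of 0.0191 by edgeR's quasi-likelihood test, so most of its transcript was still counted. Without control 1 the adjusted p of Lhx2 was 0.176, without Lhx2 cKO 1 it was 0.102 and without Lhx2 cKO 2 it was 0.0538. All 6 cortex markers were present in every library, with Emx1 lower in Lhx2 cKO at 39.1 and 38.9 CPM against 119 and 107 CPM.

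Upstream sequence is shown first for both heavy chains and B2m, because these 3 genes, which make up the surface molecule, share a pair of boxes at the same spacing. RefSeq promoter entries (build GRCm38.p6) were matched for 7 of the 9 genes. Tap2 and Nlrc5 had no match. The windows are chr17:34000355-34000463 on the minus strand for H2-K1, chr17:35262918-35263026 on the plus strand for H2-D1 and chr2:122147534-122147642 on the plus strand for B2m, each upstream of the annotated start and written 5′ to 3′ along the gene. Capitals mark, where present, the NF-κB site, the core of the interferon-stimulated response element (ISRE), the X2 box and the Y box.
H2-K1: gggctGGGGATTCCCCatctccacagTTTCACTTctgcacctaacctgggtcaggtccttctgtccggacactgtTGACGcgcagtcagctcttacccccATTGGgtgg
H2-D1: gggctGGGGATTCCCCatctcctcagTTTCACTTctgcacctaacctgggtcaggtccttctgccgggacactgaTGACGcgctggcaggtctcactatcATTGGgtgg
B2m: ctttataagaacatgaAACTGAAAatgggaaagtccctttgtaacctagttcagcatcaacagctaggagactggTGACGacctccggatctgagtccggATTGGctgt

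In all 3 windows the X2 box core TGACG, the kind of letters CREB/ATF proteins bind, was followed after exactly 20 bases by ATTGG, the Y box letters that NF-Y binds. This pair, on either strand, was held by 30 of 32851 promoter entries within the 250 bases before the start (0.0913%, or 26 of 27025 genes). The class I chain H2-M3, not analysed here, was among them. The letters GGGGATTCCCC, an NF-κB site, were upstream of H2-K1 and H2-D1 and in 10 promoter entries in all (0.0304%). The ISRE core AANTGAAA, bound by interferon regulatory factors, was in the H2-K1, H2-D1 and B2m windows and in 5.7% of all entries, in reverse orientation for the heavy chains. Of the other class I and class I-like chains analysed below, H2-T22, H2-Q4 and Hfe also held this core. Of these only Hfe was called higher. The H2-K1 and H2-D1 windows were identical at 98 of 109 positions (89.9%), and H2-K1 and B2m at 46 of 109 (42.2%), so the heavy chains share most of the stretch.

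Of the other matched genes, Tap1 held TGACG at position -86 and ATTGG in reverse at -222, Tapbp held ATTGG at -248 and -165, Psmb8 held the STAT site (GAS) TTCNNNGAA at -97 (7.02% of all entries have one), and Psmb10 held none of these letters. Single TGACG and ATTGG matches are common, in 17.8% and 33.8% of entries, both strands counted. The map of matches shows the X2 and Y pair common to H2-D1, H2-K1 and B2m, and the other sites that H2-D1 and H2-K1 share. A match describes letters only, and the ISRE core and the spacing of 20 bases were set after these sequences had been read, while the NF-κB letters are those of H2-K1 itself.

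**Figure D1:**
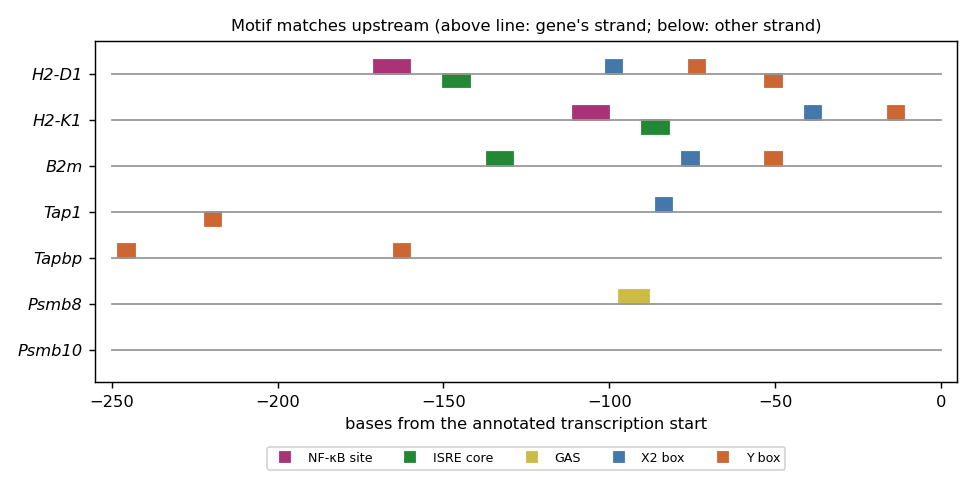
Matches to 5 motifs in the 250 bases upstream of the annotated start of 7 genes, with position in bases on the x axis, colour by motif, blocks above the line for the gene's own strand and below it for the other strand. The X2 and Y boxes of H2-D1, H2-K1 and B2m are separated by 20 bases in each gene, at different distances from the start.

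The heavy chains form the peptide groove of the class I molecule. H2-D1 (ENSMUSG00000073411.13, chromosome 17) was at 43 and 48.4 CPM in the controls against 77 and 90.8 CPM in the knockouts. H2-K1 (ENSMUSG00000061232.17, chromosome 17) was at 7.13 and 8.32 CPM in the controls against 13.7 and 19.5 CPM in the knockouts. Both Lhx2 cKO libraries lay above both control libraries for each chain, with the second Lhx2 cKO library the higher one. The log2 fold change, Lhx2 cKO over control, was 0.88 (SE 0.104) for H2-D1 and 1.10 (SE 0.174) for H2-K1, or 1.84-fold and 2.15-fold.

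Per length, H2-D1 was the more abundant of the pair, at 17.7 ± 1.48 CPM per kilobase in control against 2.63 ± 0.286 for H2-K1 (SD, n = 2). The level of H2-K1 was 14.6% and 15.1% of that of H2-D1 in the controls against 15.6% and 18.9% in the knockouts. Class I heavy chains resemble each other, so counting can split their reads. In GENCODE M21, 4.6% of the 100-base windows of the longest H2-D1 transcript recur in another gene, mainly H2-Q1, and 0% of those of H2-K1, with 0% shared between H2-D1 and H2-K1. Only identical windows were counted, so these shares cannot tell how well counting kept H2-D1 and H2-K1 apart.

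B2m (ENSMUSG00000060802.9, chromosome 2) encodes beta-2 microglobulin, the light chain that every classical class I heavy chain needs to fold. It was at 11.1 and 13 CPM in the controls against 31.3 and 38.8 CPM in the knockouts, means of 12 ± 1.29 and 35.1 ± 5.33 CPM (SD, n = 2). The groups did not overlap, and the log2 fold change was 1.54 (SE 0.135), a 2.91-fold difference. Among the 9 genes only Nlrc5 had a larger estimate.

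The balance of B2m transcript to that of H2-D1 plus H2-K1 also differed between the groups. Other class I and class I-like chains are left out of this balance. Among them, Cd1d1 was at a mean of 25 CPM per kilobase in control and 26 in the knockouts. Per length, B2m was 67.8% and 69.8% of H2-D1 plus H2-K1 in the controls against 105% and 108% in the knockouts. The percentages depend on the deposited gene lengths, which exceed the longest GENCODE M21 transcript for H2-D1 (2579 against 2102 bases) and H2-K1 (2938 against 1619) but not for B2m (860 in both), so a heavy chain read from a shorter transcript would be understated against B2m. The fold of a single gene between groups does not depend on its length.

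**Figure D2:**
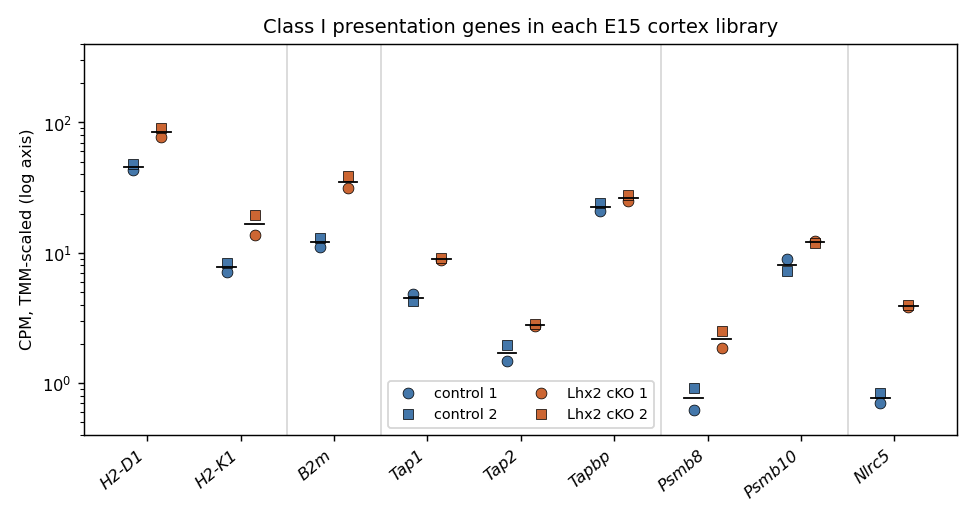
CPM (log axis) of the 9 genes in each library, in blue for control and orange for Lhx2 cKO, with a bar at the mean of each group of 2. Both Lhx2 cKO points lie above both control points for every gene, by the widest margin for Nlrc5 and the narrowest for Tapbp.

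Of the 3 genes of peptide transport and loading, Tapbp had the smallest estimate, and no test was made between the genes. Tap1 (ENSMUSG00000037321.18, chromosome 17), one side of the transporter, was at 4.83 and 4.24 CPM in the controls against 8.83 and 9.05 CPM in the knockouts, a log2 fold change of 0.98 (SE 0.208). Tap2 (ENSMUSG00000024339.13), the other side, was at 1.48 and 1.96 CPM in the controls against 2.77 and 2.87 CPM in the knockouts, with a log2 fold change of 0.71 (SE 0.355). Tapbp (ENSMUSG00000024308.16), the bridge between transporter and heavy chain, was at 20.8 and 24.1 CPM in the controls against 24.8 and 27.7 CPM in the knockouts, with a log2 fold change of 0.23 (SE 0.125). For Tapbp the gap between the nearest libraries was less than the gap within either group, although the groups did not overlap.

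Tapbp was the most abundant of these 3 per length, at 6.19 ± 0.635 CPM per kilobase in control against 0.828 ± 0.0754 for Tap1 and 0.456 ± 0.089 for Tap2 (SD, n = 2). The level of Tap1 was 15.3% and 11.7% of that of Tapbp in the controls against 23.6% and 21.7% in the knockouts. That of Tap2 relative to Tap1 overlapped between the groups, at 44.6% and 66.9% in the controls against 45.4% and 46% in the knockouts. The deposited length exceeds the longest M21 transcript most for Tap1 (5476 against 2953 bases), which lowers its value per length. For Tapbp these lengths are 3628 against 2898 bases, and for Tap2 3781 against 3442. Tap1 and Psmb9 overlap in their exons on opposite strands, Tapbp overlaps Zbtb22 on its own strand, and Tap2 overlaps the antisense gene Gm20496. The use of strand in counting is not given in the sources used here, so these counts are uncertain.

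Among the immunoproteasome subunits, Psmb8 (ENSMUSG00000024338.16, chromosome 17), which replaces Psmb5, had few reads. It drew 15 and 23 reads in the controls against 42 and 58 in the knockouts, or 0.619 and 0.92 CPM against 1.85 and 2.52 CPM, a log2 fold change of 1.5 (SE 0.437). Psmb8 also overlaps Gm20496. Psmb10 (ENSMUSG00000031897.10, chromosome 8), which replaces Psmb7, was at 8.99 and 7.28 CPM in the controls against 12.4 and 11.9 CPM in the knockouts, a log2 fold change of 0.58 (SE 0.175). In both genes the Lhx2 cKO libraries lay above the control libraries.

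The constitutive subunits they replace were not called. Psmb5 was at 60.9 and 56 CPM in the controls against 66.3 and 67.3 CPM in the knockouts (log2 fold change 0.19 with SE 0.099, edgeR adjusted p 0.175), and Psmb7 at 51.6 and 49.4 CPM against 52.7 and 53 CPM (0.07, SE 0.1, adjusted p 0.704). Psmb6, the counterpart of Psmb9, differed by 0.01 on the log2 scale (SE 0.094), with an edgeR adjusted p of 0.971. Of these 3 constitutive subunits, 0 were called by edgeR, DESeq2 or limma-voom, and 0 had an unadjusted p under 0.05 in edgeR.

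Per length, the inducible subunits were the minor form in every library. Psmb8 amounted to 0.27% and 0.437% of Psmb5 in the controls against 0.74% and 0.998% in the knockouts. Psmb10 amounted to 35% and 29.6% of Psmb7 in the controls against 47.4% and 45% in the knockouts. The groups did not overlap in either ratio, and in the plot of catalytic subunits the groups lie farther apart for Psmb8 and Psmb10 than for Psmb5, Psmb6 and Psmb7. The deposited length of Psmb8, 3381 bases, exceeds its longest M21 transcript of 1628 bases, which lowers its value per length. For Psmb10 these lengths are 1705 and 1311 bases.

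**Figure D3:**
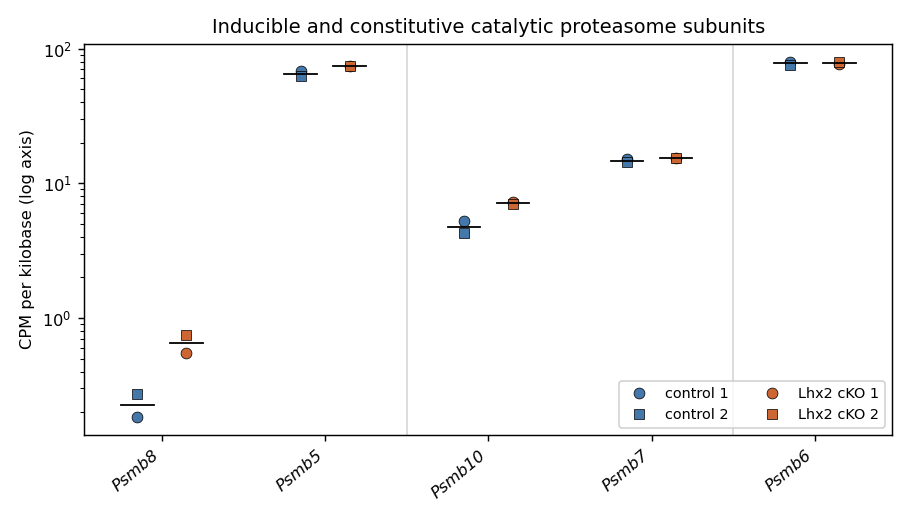
CPM per kilobase (log axis) of the inducible subunits Psmb8 and Psmb10 beside the constitutive Psmb5, Psmb7 and Psmb6 in each library, with a bar at each group's mean. Psmb8 lies far below Psmb5 in every library, at 0.27% to 0.998% of it, and Psmb10 lies below Psmb7.

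Nlrc5 (ENSMUSG00000074151.14, chromosome 8), the class I transactivator, had the largest difference of the 9. It drew 17 and 21 reads in the controls against 88 and 92 in the knockouts, or 0.701 and 0.84 CPM against 3.87 and 4 CPM, a log2 fold change of 2.34 (SE 0.381), which is 5.08-fold. The libraries within each group were close to each other and the groups were far apart. Nlrc5 overlaps the long noncoding gene 9330175E14Rik on the other strand. Its relative Ciita, which drives class II promoters and is named after its values were seen, was at 1.48 and 1.12 CPM in the controls against 1.36 and 0.914 CPM in the knockouts (log2 fold change -0.19 with SE 0.45, edgeR adjusted p 0.812).

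Across the 9 genes, 7 were called higher (adjusted p under 0.05 in edgeR's quasi-likelihood test over all genes), against 11.6% of the 13288 genes tested, and 0 were called lower, against 9.17%. At a threshold of 0.01, 5 of the 9 were called higher, beside 1697 of all genes tested in either direction. Both Lhx2 cKO libraries exceeded both control libraries for 9 of 9, against 30.2% of all genes tested, and lay below them for 0, against 29.1%. The median log2 fold change was 0.98, against 0.003 over all genes. Because the same contrast chose the genes, these counts are a description and nothing is read from them. All 9 passed the filter on low counts. With a single library left out, fewer of the 9 were called higher in each fit. The log2 fold change then ran from 1.23 to 1.81 for Psmb8, from 0.44 to 0.73 for Psmb10 and from 0.11 to 0.33 for Tapbp. The authors' deposited table gives log2 fold changes from 0.22 for Tapbp to 2.33 for Nlrc5.

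**Figure D4:**
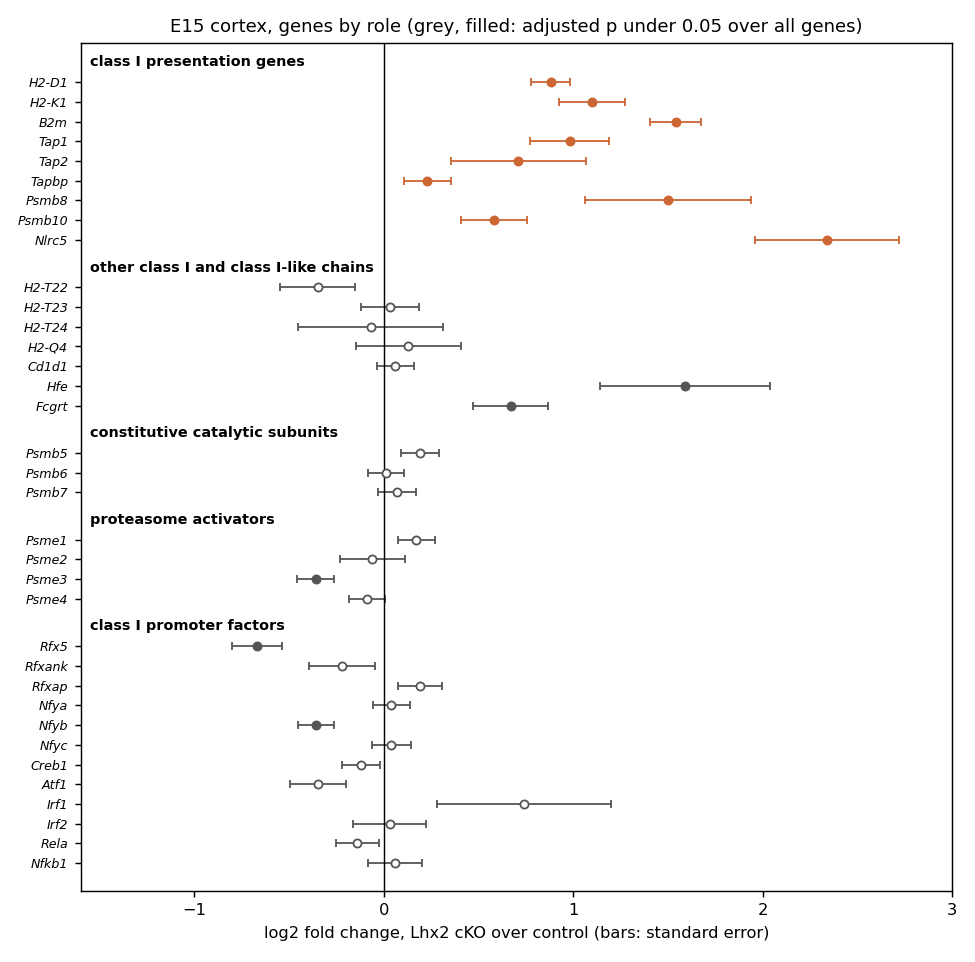
Log2 fold change, Lhx2 cKO over control, with its standard error for the 9 genes (orange, all drawn filled) and for 4 lists of related genes (grey, filled where the adjusted p was under 0.05). The 9 orange points all lie to the right of 0, from 0.23 for Tapbp to 2.34 for Nlrc5, while most grey points lie near 0. The other lists are not drawn. Among them, interferon-stimulated genes (median 2.45) and microglia markers (median 1.1) were mostly called higher, and red blood cell markers (median -0.43) lower.

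Other class I and class I-like chains were mostly not called. Of 14 such genes in the list 7 were analysed, with 2 called higher, 0 lower and a median log2 fold change of 0.06. Hfe, which pairs with B2m and regulates iron uptake, rose from 0.536 and 0.88 CPM to 1.85 and 2.44 CPM (log2 fold change 1.59 with SE 0.447, edgeR adjusted p 0.00831). Fcgrt, the heavy chain of the neonatal Fc receptor, which also pairs with B2m, rose from 5.32 and 5.96 CPM to 9.01 and 9.01 CPM (0.67, SE 0.198, adjusted p 0.0114). Neither call held without control 1 (adjusted p 0.103 for Hfe and 0.109 for Fcgrt) or without Lhx2 cKO 2 (0.112 and 0.0644).

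The 5 that were not called are named here after their values were seen. H2-T23, which encodes the nonclassical Qa-1, was at 13.5 and 18.8 CPM in the controls against 15.8 and 17.3 CPM in the knockouts (log2 fold change 0.03, SE 0.153), and the groups overlapped. Cd1d1, which presents lipids, was at 0.06 (SE 0.098), H2-Q4 at 0.13 (SE 0.277), H2-T24 at -0.07 (SE 0.383) and H2-T22 at -0.35 (SE 0.196), as log2 fold changes, and their edgeR adjusted p ran from 0.217 to 0.919. Sequence sharing limits H2-T22 and Cd1d1, of whose longest transcripts 14.2% and 14.6% of the windows recur in another gene.

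Chaperones of the endoplasmic reticulum and peptide-trimming enzymes gave 0 calls among 12 genes in edgeR, DESeq2 and limma-voom, with 3 at an unadjusted p under 0.05 in edgeR and a median log2 fold change of 0.18. They include Calr, Canx and Pdia3 of the loading complex and the trimming enzyme Erap1. Without control 2 or without Lhx2 cKO 1 there was 1 call. The 11 non-catalytic 20S proteasome subunits gave 0 calls in edgeR, DESeq2 and limma-voom, 4 at an unadjusted p under 0.05 and a median of 0.07, with 1 call without control 2 or without Lhx2 cKO 1.

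Of the 4 proteasome activators, the interferon-inducible pair Psme1 and Psme2 was not called. Psme1 was at 71.8 and 67.3 CPM in the controls against 80.6 and 75.4 CPM in the knockouts (log2 fold change 0.17 with SE 0.098, edgeR adjusted p 0.249), and Psme2 was at 10.4 and 10.6 CPM against 9.32 and 10.8 CPM (-0.06, SE 0.171, adjusted p 0.843). Psme3, a nuclear activator, fell from 90.9 and 79.9 CPM to 68.1 and 65 CPM (-0.36, SE 0.099, adjusted p 0.00707), a call lost without control 1 (0.12) and without Lhx2 cKO 2 (0.066).

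Among 12 factors that bind class I promoters, 2 were called lower and 0 higher. Rfx5, the DNA-binding subunit of the RFX complex with which Nlrc5 works, fell from 25 and 24.9 CPM to 15.4 and 16.1 CPM, which is -0.67 on the log2 scale (SE 0.131) with an edgeR adjusted p of 1.81e-04. Nfyb, a subunit of NF-Y, fell from 111 and 117 CPM to 90.1 and 88.1 CPM (-0.36, SE 0.095, adjusted p 0.00476). Irf1, an interferon-induced factor of the ISRE, was at 0.825 and 0.92 CPM in the controls against 1.58 and 1.35 CPM in the knockouts (0.74, SE 0.457, adjusted p 0.268). Rfx5 and Nfyb were thus lower in the libraries in which Nlrc5 was higher.

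The interferon pathway upstream of these genes gave 5 calls among 15, all higher. Irf9, which binds the ISRE as part of an interferon-activated complex, was higher at 0.48 on the log2 scale (edgeR adjusted p 0.00125), Irf7 at 0.90 (0.00162) and the receptor kinase Jak2 at 0.35 (0.00884). Without control 1 or without Lhx2 cKO 1 there were 3 calls, Irf9 being lost in the former (0.0602), Irf7 in the latter (0.0628) and Jak2 in both (0.053 and 0.129). Of 21 interferon-stimulated genes 17 were analysed, and all 17 were called higher, against 11.6% of all genes tested. Their median log2 fold change was 2.45, with a range from 1.01 to 4.42. Some had few control reads, such as Xaf1 and Ifit1, both named after their values were seen. Xaf1 drew 7 and 7 reads in the controls against 44 and 48 in the knockouts, and Ifit1 3 and 12 against 54 and 49. For such genes, being among the analysed genes and being called higher may be linked. Bst2, which tethers virus particles, rose from 3.92 and 5.96 CPM to 31.2 and 33.7 CPM (2.71, SE 0.162, adjusted p 1.04e-16). That list was written with some of these rises already known. Of the 9 class I presentation genes, Nlrc5 lies within this range, as do B2m, H2-K1 and Psmb8, and the other 5 lie below it.

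Class II genes were thinly covered, with 2 of 9 analysed, H2-DMa and Ciita, and 0 called in edgeR, DESeq2 or limma-voom (0 at an unadjusted p under 0.05). H2-DMa, which helps load class II molecules and is also named after its values were seen, was at 4.7 and 5.44 CPM in the controls against 5.36 and 6.62 CPM in the knockouts.

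Of the 9 genes, 6 lie in the MHC on chromosome 17, among genes of unrelated function. Of 25 such neighbours 24 were analysed, 0 were called higher and 2 lower, with a median log2 fold change of -0.10 and a range from -0.39 to 0.39. The called ones were Prrc2a (-0.39, SE 0.112, adjusted p 0.00971 in edgeR) and the ribosomal protein gene Rps18 (-0.33, SE 0.103, adjusted p 0.016). Without control 1 there were 0 calls (adjusted p 0.306 for Prrc2a and 0.141 for Rps18), without Lhx2 cKO 1 there was 1, and without control 2 or without Lhx2 cKO 2 there were 3. Zbtb22, named because it overlaps Tapbp, was at 39.4 and 31.7 CPM in the controls against 28.7 and 34 CPM in the knockouts.

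Markers of cells that carry class I differed between the groups as well. In whole tissue, more cells of a type and more RNA per cell cannot be told apart. Of 14 microglia markers 12 were called higher, 1 lower and 1 not called, and their summed level was 178 and 180 CPM in the controls against 351 and 382 CPM in the knockouts, a 2.05-fold difference. C1qb rose from 17.4 and 18.9 CPM to 43.2 and 49.8 CPM (log2 fold change 1.35 with SE 0.116, edgeR adjusted p 3.40e-12). The exception, Tmem119, named after its values were seen, fell from 6.93 and 5.6 CPM to 2.33 and 3.74 CPM (adjusted p 0.0032). No microglia marker was at 0 in any library.

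Of 9 endothelial markers 8 were analysed, with 6 called higher and 0 lower, and their summed level was 180 and 220 CPM in the controls against 270 and 316 CPM in the knockouts. Cldn5 rose from 63.5 and 71.8 CPM to 101 and 120 CPM (adjusted p 1.09e-06 in edgeR). Without control 1 only 2 endothelial markers were called, and without Lhx2 cKO 2 only 3. Of the border macrophage list 1 of 5 genes was analysed, Mrc1, which was called higher with all libraries (adjusted p 0.0434) and in none of the fits without one of them. Of 6 pericyte and meningeal markers analysed 2 were called lower (1 without control 2 or without Lhx2 cKO 2), and all 5 red blood cell markers analysed were called lower, or 1 without control 1 and 3 without Lhx2 cKO 2. None of the 10 lymphoid or 4 choroid plexus markers was analysed here.

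Divided by the summed microglia markers of its own library, the 9 genes did not all keep their order. B2m was 6.25% and 7.21% of that sum in the controls against 8.92% and 10.2% in the knockouts. Nlrc5 was 0.393% and 0.468% in the controls against 1.1% and 1.05% in the knockouts, and Psmb8 was 0.347% and 0.512% against 0.526% and 0.661%. For these 3 genes the Lhx2 cKO libraries stayed above the control libraries after the division. For Psmb8, which had few reads, the gap between the nearest libraries was less than the gap within either group.

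For the others they did not. H2-D1 was 24.1% and 26.9% of the microglia sum in the controls against 21.9% and 23.8% in the knockouts. H2-K1 (4% and 4.63% against 3.91% and 5.12%) and Tap1 (2.71% and 2.36% against 2.52% and 2.37%) overlapped. Tap2, Tapbp and Psmb10 were lower relative to the sum in Lhx2 cKO, with Tapbp at 11.7% and 13.4% in the controls against 7.08% and 7.25% in the knockouts. For H2-D1 and Tap2 the groups were separated only narrowly, with Tap2 at 0.833% and 1.09% in the controls against 0.79% and 0.753% in the knockouts.

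Divided by the endothelial sum, H2-D1 was 23.9% and 22% in the controls against 28.5% and 28.7% in the knockouts, B2m 6.19% and 5.9% against 11.6% and 12.3%, and Nlrc5 0.39% and 0.382% against 1.43% and 1.27%. Of the 9 genes, Psmb10 overlapped and Tapbp was lower in Lhx2 cKO on this scale. The ratios carry no test, they assume that a marker sum follows cell content, and the part of microglia, endothelial cells or interferon signalling in the class I levels was not tested.

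**Figure D5:**
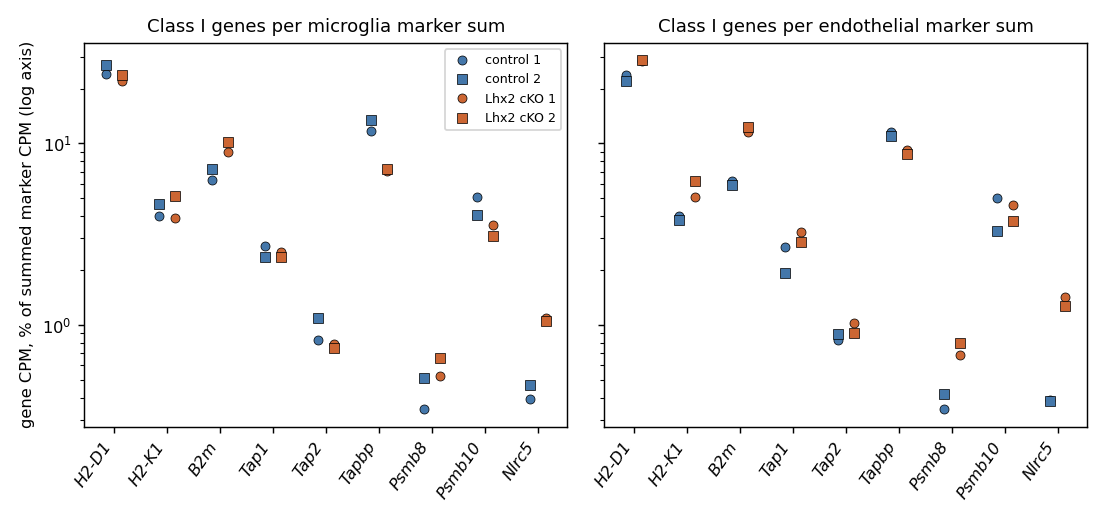
CPM of each of the 9 genes as a percent (log axis) of the summed CPM of 14 microglia markers (left) or 8 endothelial markers (right) of the same library, in blue for control and orange for Lhx2 cKO. On the left, B2m and Nlrc5 remain higher in Lhx2 cKO and Tapbp is lower, at 7.08% and 7.25% against 11.7% and 13.4%. Psmb8 is separated only narrowly, with control 2 at 0.512% and Lhx2 cKO 1 at 0.526%.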

How the data were processed

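The deposited table holds raw read counts per gene for 4 libraries, as deposited by the authors. Trim Galore, Subread, featureCounts, edgeR and the build mm39 are named, per the submitters' processing notes. Versions, the annotation and the use of strand are not given in the sources used here. Of the other deposited columns, the authors' log2 fold change was used for comparison, their p-value, adjusted p-value, -log10 and log2 CPM columns were not, and the deposited gene length in bases gave CPM per kilobase.

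All genes were fitted with edgeR 4.0.16 (R 4.3.3): TMM, filterByExpr (1 gene removed), the quasi-likelihood test of Lhx2 cKO against control without covariates, and Benjamini-Hochberg adjustment over 13288 genes, checked on simulated data. A gene with an adjusted p under 0.05 is said to be called. The common biological coefficient of variation was 8.27%. CPM are TMM-scaled, over the analysed genes only. Chi-square per degree of freedom was 13.9 between the control libraries and 14.3 between the Lhx2 cKO libraries, so each was kept as a replicate. With 2 libraries against 2 an exact permutation test cannot go below 0.333. Deviations of same-numbered libraries had a correlation of -0.01 across genes. This cannot decide whether they were prepared as pairs, since pairing need not leave a deviation shared across genes. The labels do not state pairing, and the main fit took the libraries as unpaired.

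The members and the lists were chosen with earlier results of these data known. Named beside the members were Lhx2, Psmb5, Psmb6, Psmb7, Psme1, Psme2, Irf1, Rfx5 and Cd74 (not analysed here), then up to 4 called genes per pathway list and 2 per marker list by smallest p, of which a selection is printed. Some genes are not reported here. Alternatives were other scalings and filters, a replicate block, DESeq2 1.42.0, limma-voom (limma 3.58.1), a threshold of 0.01 and leaving out each library. Promoter sequences are from RefSeq (GRCm38.p6), another build than that of the counts, and transcript overlaps from GENCODE M21 on GRCm38. No coordinates were converted.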

Additional observations from a re-analysis of the deposited data

How the results depend on the processing

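No direction reversed under any alternative run for the 9 genes, or for any called gene named in the text other than Tmem119, Xaf1 and Ifit1. Tmem119, Xaf1 and Ifit1 were not followed under the alternatives. Without one library the remaining one of its group is assumed to vary like the other group. Over these 4 fits the calls over all genes ranged from 1633 to 2396 (main value 2758), Lhx2 from -0.38 to -0.25, and the median log2 fold change of transport and loading from 0.51 to 0.89. Called genes ranged from 0 to 2 for other class I chains, 0 to 1 for chaperones, non-catalytic subunits and proteasome activators, 3 to 4 for the interferon pathway, 0 to 3 for MHC neighbours, 0 to 0 for border macrophages, 2 to 8 for endothelial cells, 1 to 2 for pericytes and meninges, 1 to 5 for red blood cells and 2 to 4 for cortex. At a threshold of 0.01, stricter by construction, 1697 genes were called, Lhx2 at -0.31 was not, and calls were 1 for other class I chains, 1 for MHC neighbours, 0 for border macrophages, 1 for pericytes and meninges and 2 for cortex. A mean count of at least 50 removed Psmb8 and Hfe, which left an immunoproteasome median of 0.59 and 1 call among other class I chains, and no border macrophage gene. DESeq2 gave 0 calls for border macrophages and 3 for red blood cells; the cause was not tested. Upper-quartile factors gave 1 call among non-catalytic subunits. The replicate block gave 2874 calls, 1 of them a chaperone and 1 a non-catalytic subunit; the cause was not tested. The median of all genes moved between -0.007 and 0.006 over the scalings. Psmb8, Tap2, Nlrc5 and Hfe rest on fewer than 100 counts in every library, which limits their precision. The same holds for H2-T24, Irf1, Ciita, Mrc1, Xaf1 and Ifit1, whether called or not.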
